A study of Mus musculus with 6 samples.

Results

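The genes described are 9 members of the KIT ligand, PI3K, FOXO3 and mTOR axis that controls the activation of primordial follicles: Kitl, Kit, Pdpk1, Akt1, Foxo3, Tsc1, Tsc2, Mtor and Rptor. They were chosen by symbol, 1 row for each, out of 47205 genes in the expression table, with earlier results of these data known. RNA was sequenced from whole mouse ovaries at 9 days post partum. There were 3 libraries from ovaries with a granulosa cell knockout of Srsf1 (cKO) and 3 from wild-type ovaries (WT). The sources used here do not give the Cre driver, the strain or the number of animals behind a library, so the p-values below measure only the spread between these samples, which may be technical. Levels are FPKM, that is, fragments for each kilobase of a gene, which the authors scaled to the library, and a level can therefore be set against that of another gene.

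A primordial follicle is a resting oocyte within a layer of flat pregranulosa cells. KIT ligand, made by granulosa cells, binds the receptor tyrosine kinase KIT on the oocyte. KIT recruits PI3K, whose lipid product brings PDPK1 and AKT to the membrane, where PDPK1 phosphorylates AKT. AKT drives the transcription factor FOXO3 out of the oocyte nucleus, and mice without FOXO3 lose their follicle reserve through early activation of all primordial follicles. In parallel, mTOR complex 1 promotes growth and is held back by the TSC1 and TSC2 proteins; it acts in pregranulosa cells as well as in oocytes. Most of this control is by phosphorylation and localization of proteins, which RNA levels do not measure.

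Kitl makes 2 main membrane-bound proteins that differ by a coding exon. That exon holds the main site at which the ligand is cut from the cell surface to become soluble; the form without it stays mostly on the membrane, and in mice oocyte growth has been tied mainly to the membrane form. The exon and its neighbours are shown because every Kitl value below adds both forms together. In GENCODE M21 it is exon 6 of the transcript Kitl-202, at chr10:100080857-100080940 on the plus strand of GRCm38, with 84 bases or 28 codons. Capitals mark the exon, and the 24 lower-case bases on each side belong to the adjoining exons, which are joined directly in Kitl-201.
Kitl-202: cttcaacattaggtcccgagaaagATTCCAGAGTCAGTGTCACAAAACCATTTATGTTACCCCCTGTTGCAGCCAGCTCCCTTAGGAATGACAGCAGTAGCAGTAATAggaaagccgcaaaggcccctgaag
Kitl-201: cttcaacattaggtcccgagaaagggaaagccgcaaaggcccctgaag
The inclusion of the exon was not analysed here, since the table has a single value for each gene.

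The libraries held 18.6 to 18.7 M reads in cKO and 16.8 to 18.5 M in WT, recovered from the FPKM values. The targeted gene Srsf1, a splicing factor, stood at 20.3, 26.9 and 21.4 FPKM in cKO, against 39.9, 49.6 and 46.3 FPKM in WT (log2 fold change -0.96, SE 0.134, limma adjusted p = 0.32). Of the oocyte markers, Gdf9, a growth factor, ranged from 256 to 319 FPKM in cKO and from 287 to 312 FPKM in WT. Of the granulosa cell markers, the transcription factor gene Foxl2 ranged from 105 to 132 FPKM in cKO and from 138 to 224 FPKM in WT. Wt1, another of them, had overlapping groups, at 126 to 164 FPKM in cKO and 129 to 145 FPKM in WT. The receptor gene Fshr (0.838 to 0.924 FPKM in cKO, 1.18 to 2 FPKM in WT) and the activin subunit gene Inhba (0.315 to 0.408 FPKM in cKO, 0.378 to 0.463 FPKM in WT, under the filter on low values) were low. One cKO library, replicate 2, stood apart with gene length. Its values lay above the gene's mean over the 6 libraries for genes of up to 1000 bases (median deviation 0.20 on the log2(FPKM + 1) scale) and below it for genes of over 8000 bases (-0.15). WT replicate 2 had the opposite pattern (-0.19 and 0.12). The members are 3039 to 8866 bases long.

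Kitl was the member with the largest difference, and all cKO libraries lay below all WT libraries. It stood at 43.6, 48.0 and 60.1 FPKM in the cKO libraries (replicates 1 to 3 in order, here and below), against 66.8, 68.8 and 74.6 FPKM in the WT libraries. The mean was 50.6 ± 8.56 FPKM in cKO and 70.1 ± 4.02 FPKM in WT (SD, n = 3 each), so that cKO held 72.2% of the WT level. The gap between cKO replicate 3 and WT replicate 1 was narrow beside the spread among the cKO libraries. Kitl lies on chromosome 10 (99851477 to 99936278, plus strand, positions of the deposited table on GRCm39) and had 4767 to 7967 reads per library. Its log2 fold change, cKO minus WT on the log2(FPKM + 1) scale, was -0.47 (SE 0.13, 95% interval -0.78 to -0.17). The unadjusted limma p was 0.00828 and the p adjusted over the 14714 genes tested was 0.74, so that the difference did not pass the threshold of 0.05. For Kitl by itself, the exact two-sided permutation p was 0.1, and 3 against 3 libraries cannot give a smaller one. The unadjusted and permutation p-values make no allowance for the choice of members with earlier results of these data known.

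**Figure D1:**
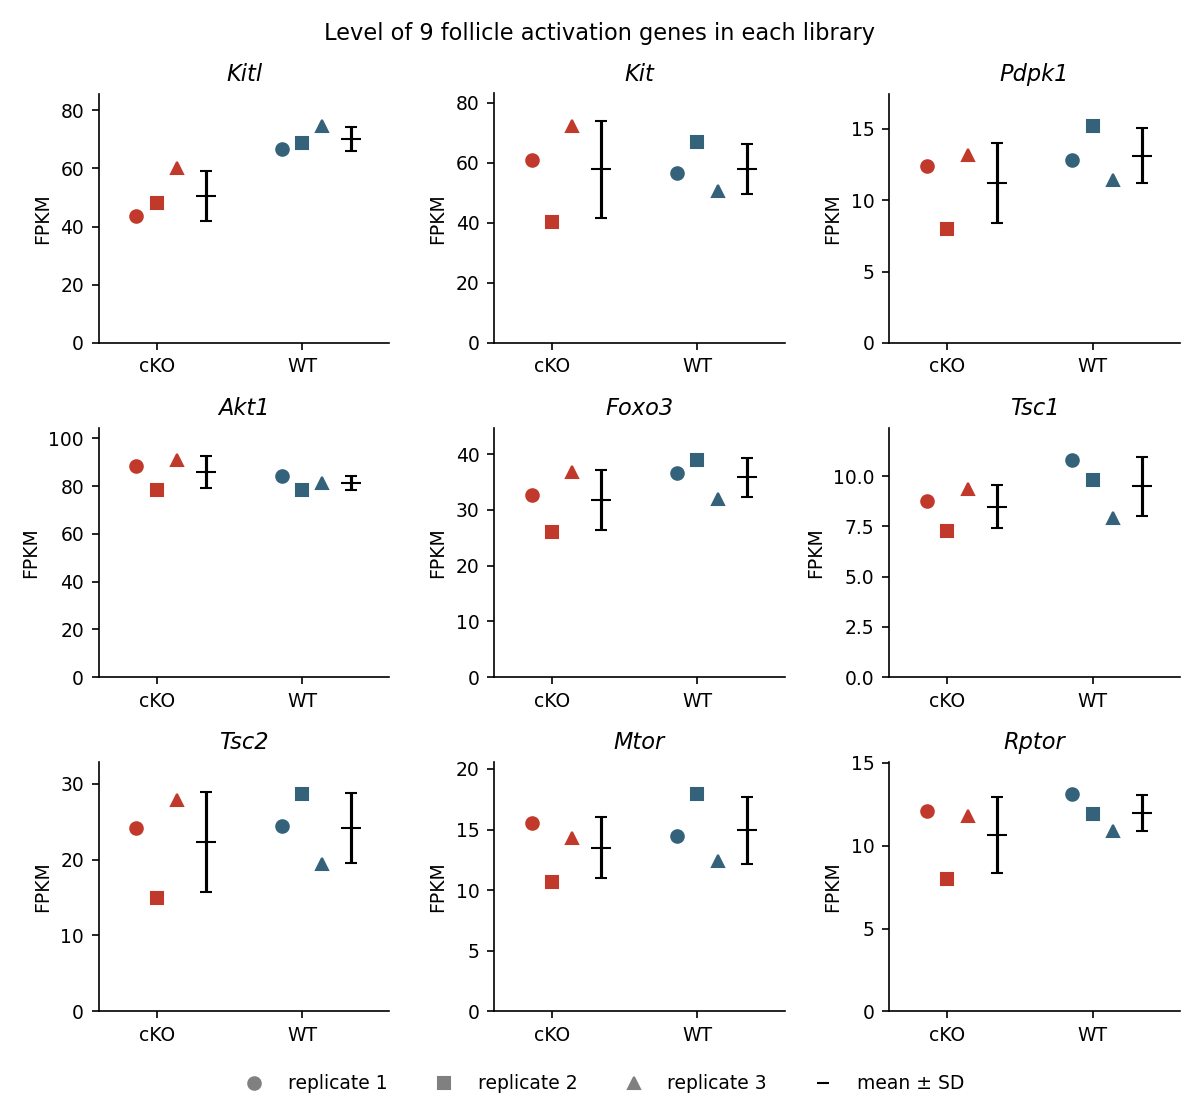
FPKM (vertical axis, from 0) of each of the 9 genes in the 3 cKO and the 3 WT libraries, with a marker shape for each replicate number and the group mean ± SD beside the points. The groups are separate for Kitl (43.6 to 60.1 FPKM in cKO, 66.8 to 74.6 FPKM in WT) and overlap for the other members.

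Of the 9 members, 0 passed the threshold in either direction by limma (adjusted p = 0.74 to 0.98), where 0.0204% of all genes tested did, 0.0068% higher and 0.0136% lower. At an unadjusted p under 0.05, 1 member was lower (Kitl) and 0 were higher, beside 2.7% lower and 3.64% higher, 6.34% together, among all genes tested. Kitl was also the 1 member with all cKO libraries below all WT libraries, beside 5.89% of genes tested. With limma-voom on recovered reads, 0 genes of any kind had an adjusted p under 0.05 and 6.16% had an unadjusted p under 0.05, and the unadjusted p for Kitl was 0.00676. With the Kitl groups separate, leaving out a library could not turn the direction of the difference. The log2 fold change then lay between -0.60 and -0.38, with an unadjusted limma p between 0.00114 and 0.0303. The adjusted limma p was 0.617 or more.

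Granulosa cells are the source of KIT ligand, and most of their markers had lower mean levels in cKO, as Kitl did. Of 13 tested markers, 10 had a log2 fold change below 0 (median -0.36, beside 0 over all genes tested), 5 had all cKO libraries below all WT libraries, beside 5.89% of genes tested, and 0 passed the threshold. The marker lists, here and below, were chosen with earlier results of these data known. Their counts therefore describe the listed genes and do not test a change in a cell type. Nr5a2, a nuclear receptor of granulosa cells, stood at 33.8, 26.3 and 36.8 FPKM in cKO, against 43.9, 56.4 and 49.9 FPKM in WT, while Inhbb, an inhibin and activin subunit, had the higher mean in cKO (67.4 to 85.6 FPKM in cKO, 45.4 to 67.4 FPKM in WT). The summed level of all 14 markers ranged from 997 to 1180 FPKM in cKO and from 1200 to 1310 FPKM in WT. Markers of the surface epithelium lay on the other side: all 9 had a log2 fold change above 0 (median 0.67), and 6 had all cKO libraries above all WT libraries, beside 6.37% of genes tested. Their summed level was 255 to 350 FPKM in cKO and 174 to 229 FPKM in WT, and their part in the Kitl values was not tested. In whole ovaries, fewer granulosa cells and less Kitl RNA per granulosa cell cannot be told apart.

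Set against the mean of the granulosa markers, the Kitl groups overlapped. The log2 level of Kitl minus the mean log2 level of the markers was -0.02, 0.39 and 0.59 in cKO, against 0.51, 0.45 and 0.71 in WT. The difference between group means was -0.23 (exact two-sided permutation p = 0.4, n = 3 each). It rested largely on cKO replicate 1, without which it was -0.06.

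**Figure D2:**
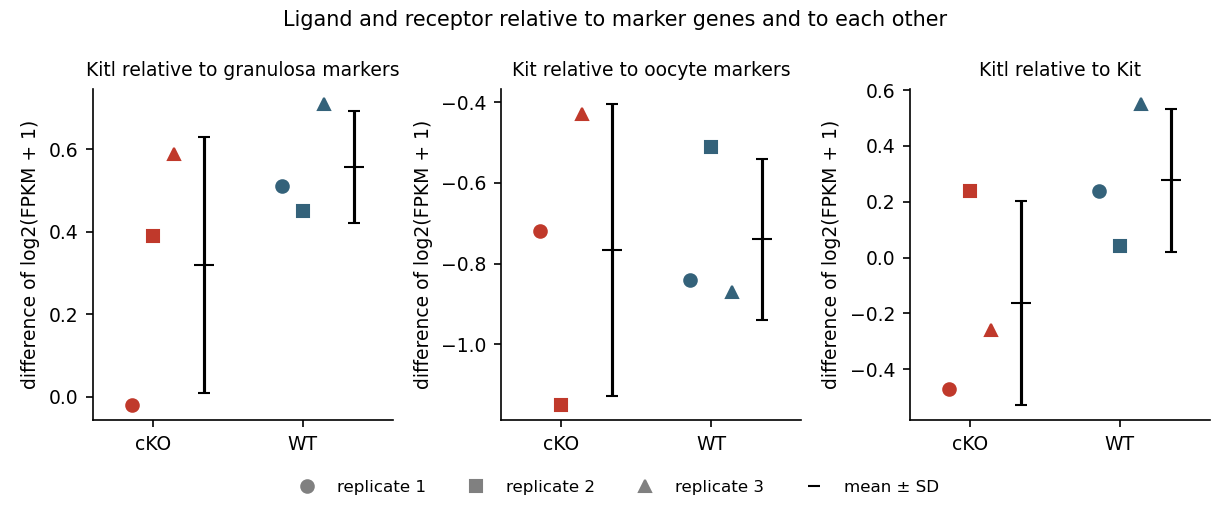
Per-library differences of log2(FPKM + 1) (vertical axes, not starting at 0) for Kitl minus the mean of 14 granulosa markers, Kit minus the mean of 15 oocyte markers, and Kitl minus Kit, with the group mean ± SD beside the points. The cKO and WT libraries overlap in all 3 panels; cKO replicate 1 is lowest for Kitl against granulosa markers (-0.02) and cKO replicate 2 is lowest for Kit against oocyte markers (-1.15).

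Among 6353 other protein-coding genes averaging 10 FPKM or more, the profile over the 6 libraries was most like that of Kitl for Heg1, Col4a5, Smoc1 and Fmnl2. The measure was the root mean square difference between log2 profiles, each centred on its own mean, and it was 0.0969, 0.107, 0.111 and 0.118. Heg1 encodes an endothelial cell surface protein, Col4a5 a type IV collagen chain of basement membranes, Smoc1 a secreted calcium-binding matrix protein, and Fmnl2 a formin that shapes actin filaments. Smoc1 stood at 22.9, 23.4 and 27.4 FPKM in cKO, against 32.5, 34.3 and 30.7 FPKM in WT. All 4 shared with Kitl that each cKO library lay below each WT library and that cKO replicate 1 was lowest, which the measure favours.

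The receptor gene Kit had nearly equal means and a wide spread. It stood at 60.9, 40.4 and 72.2 FPKM in cKO, against 56.5, 67.0 and 50.6 FPKM in WT. The cKO libraries thus held both the lowest and the highest level, and the WT libraries lay between them. The means were 57.8 ± 16.1 FPKM in cKO and 58.0 ± 8.29 FPKM in WT (SD, n = 3 each; chromosome 5, 75735647 to 75817382, plus strand). The log2 fold change was -0.04 (SE 0.217, limma adjusted p = 0.98), and its 95% interval of -0.55 to 0.48 leaves room for a sizeable difference in either direction. Without cKO replicate 2 it was 0.20, with an interval of -0.16 to 0.55, and without WT replicate 2 it was 0.07.

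KIT is made by oocytes, and also by theca and interstitial cells and by mast cells. Oocyte markers lay on both sides of 0, with 7 of 15 having a log2 fold change above 0 and 8 below (median 0). Kit minus the mean of the oocyte markers was -0.72, -1.15 and -0.43 in cKO, against -0.84, -0.51 and -0.87 in WT (difference of means -0.03, exact two-sided permutation p = 1, n = 3 each). Of 5 tested mast cell markers, 4 had a log2 fold change below 0. The summed level of all 7 mast cell markers, at 20.9 to 29.6 FPKM in cKO and 23.8 to 51.8 FPKM in WT, was below that of Kit alone in all but 1 library, WT replicate 3 (51.8 FPKM, Kit at 50.6 FPKM). A sum of marker levels does not give the Kit RNA that mast cells hold. Tpsb2 ranged from 7.87 to 9.06 FPKM in cKO and from 8.66 to 16.6 FPKM in WT, and Mcpt4 from 2.58 to 4.81 FPKM in cKO and from 4.78 to 11 FPKM in WT. Hdc, the tested mast cell marker on the other side, ranged from 1.89 to 3.01 FPKM in cKO and from 1.18 to 2.84 FPKM in WT (log2 fold change 0.34). The mast cell receptor gene Fcer1a was listed at 0 in all cKO libraries and at 0, 0.107 and 0 FPKM in WT. Of the 6 theca and steroidogenic markers, 2 passed the filter on low values. The summed level of all 6 was 30.1 to 60.4 FPKM in cKO and 124 to 188 FPKM in WT. Most of it was Hsd3b1, a gene of progesterone synthesis, at 39.3, 23.3 and 51.6 FPKM in cKO, against 115, 181 and 121 FPKM in WT (log2 fold change -1.88, SE 0.301, limma adjusted p = 0.37). Star, the other tested marker, had the higher mean in cKO (4.76 to 6.94 FPKM in cKO, 4.48 to 5.87 FPKM in WT, log2 fold change 0.16). Cyp17a1, Cyp11a1, Lhcgr and Insl3, the markers under the filter, lay between 0.198 and 1.33 FPKM in all libraries. The part of mast cells and of theca and steroidogenic cells in the Kit values was not tested.

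The profiles most like that of Kit were those of Kif16b, an endosomal motor protein gene, Gda, a guanine deaminase gene, Akap11, which encodes an anchoring protein of protein kinase A, and Fam91a1 (root mean square differences 0.0398, 0.0547, 0.0552 and 0.0577). Kif16b stood at 11.2, 6.99 and 13.3 FPKM in cKO, against 10.6, 11.5 and 9.02 FPKM in WT. Each of these genes was lowest in cKO replicate 2, as Kit was, which the measure favours. Of all genes tested, 27.4% were lowest in that library.

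The balance of ligand to receptor RNA varied within both groups. The ratio of Kitl to Kit, both in FPKM, was 0.716, 1.19 and 0.833 in cKO and 1.18, 1.03 and 1.47 in WT. In 2 of 3 cKO libraries Kit was the more abundant, and in all 3 WT libraries Kitl was. On the log2(FPKM + 1) scale the difference between groups was -0.44 (exact two-sided permutation p = 0.3, n = 3 each), and cKO replicate 2, whose ratio lay with those of WT, had the lowest Kit level. The difference was -0.28 without cKO replicate 1 and -0.64 without cKO replicate 2.

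Of the kinases that relay the signal, Akt1 had the smallest standard error of all members. It stood at 88.4, 78.3 and 90.8 FPKM in cKO, against 84.1, 78.2 and 81.3 FPKM in WT (chromosome 12, 112620255 to 112641318, minus strand). The groups overlapped, with a log2 difference of 0.08 (SE 0.092, 95% interval -0.14 to 0.29, limma adjusted p = 0.886). It was the 1 member with a log2 fold change above 0, and leaving out single libraries gave 0.03 to 0.14. Pdpk1, the kinase that phosphorylates AKT in its activation loop, stood at 12.4, 7.97 and 13.2 FPKM in cKO, against 12.8, 15.2 and 11.4 FPKM in WT (chromosome 17, 24292654 to 24370957, minus strand). Its 2 higher cKO libraries lay within the WT range and cKO replicate 2 lay below it. The log2 fold change was -0.23 (SE 0.193, 95% interval -0.69 to 0.22, limma adjusted p = 0.851) and -0.03 without cKO replicate 2.

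Foxo3, whose protein keeps primordial follicles at rest, stood at 32.6, 26.1 and 36.8 FPKM in cKO, against 36.6, 38.9 and 32 FPKM in WT (chromosome 10, 42057841 to 42152691, minus strand). The groups overlapped, with means of 31.8 ± 5.38 FPKM in cKO and 35.8 ± 3.5 FPKM in WT (SD, n = 3 each). The log2 fold change was -0.18 (SE 0.142, 95% interval -0.51 to 0.16, limma adjusted p = 0.845) and -0.05 without cKO replicate 2. FOXO3 is inactivated by leaving the nucleus, so that its RNA level does not report its activity.

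The genes of the TSC complex, which restrains mTOR complex 1, also overlapped between the groups. Tsc1 stood at 8.76, 7.29 and 9.37 FPKM in cKO, against 10.8, 9.82 and 7.90 FPKM in WT (chromosome 2, 28531005 to 28581184, plus strand; log2 fold change -0.15, SE 0.141, limma adjusted p = 0.865). Its value was -0.05 without cKO replicate 2, -0.06 without WT replicate 1 and -0.26 without WT replicate 3. Tsc2, the GTPase-activating subunit, stood at 24.2, 15.0 and 27.8 FPKM in cKO, against 24.4, 28.6 and 19.4 FPKM in WT (chromosome 17, 24814790 to 24851607, minus strand). It was the member with the widest interval, -0.70 to 0.43 around a log2 value of -0.13 (SE 0.239, limma adjusted p = 0.919), and the value was 0.12 without cKO replicate 2. The last 699 bases of Tsc2 overlap Pkd1 on the opposite strand, at 15.3 to 19.6 FPKM, and the sources used here do not say whether the libraries kept strand, so that reads of the shared stretch cannot be assigned.

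The mTOR kinase gene and its partner in complex 1 were both lowest in cKO replicate 2. Mtor stood at 15.5, 10.7 and 14.3 FPKM in cKO, against 14.5, 17.9 and 12.4 FPKM in WT (chromosome 4, 148533039 to 148642142, plus strand). Rptor, which encodes the scaffold that brings substrates to the kinase, stood at 12.1, 8 and 11.8 FPKM in cKO, against 13.1, 11.9 and 10.9 FPKM in WT (chromosome 11, 119493731 to 119790417, plus strand). For both, cKO replicates 1 and 3 lay within the WT range and cKO replicate 2 below it. The log2 fold changes were -0.14 for Mtor (SE 0.173, 95% interval -0.55 to 0.27, limma adjusted p = 0.891) and -0.17 for Rptor (SE 0.162, 95% interval -0.55 to 0.21, limma adjusted p = 0.864). Without cKO replicate 2 they were 0.01 and 0. The protein-coding gene Angptl7, at 1.52 to 3.7 FPKM, overlaps Mtor over 5183 bases on the opposite strand. With strandedness not given, any reads shared with Mtor there cannot be assigned.

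**Figure D3:**
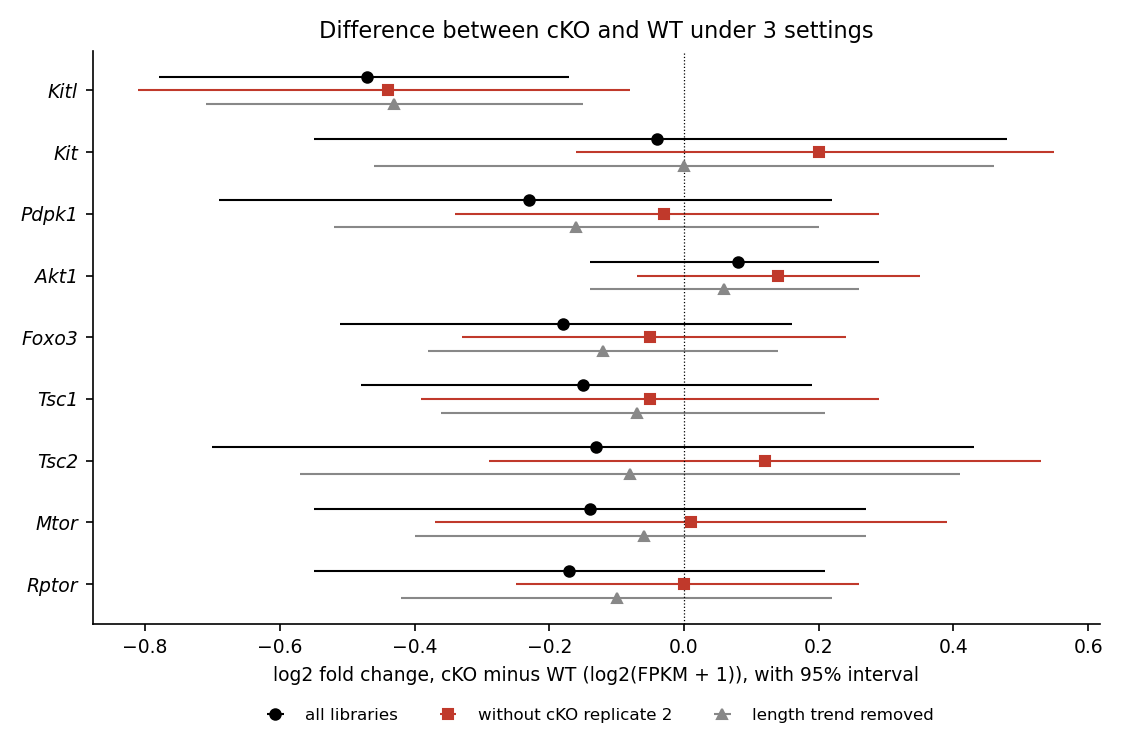
Log2 fold change, cKO minus WT (horizontal axis, log2(FPKM + 1) scale), of each member with its 95% limma interval, over all libraries, without cKO replicate 2, and with the trend over gene length removed from each library. The interval of Kitl lies below 0 in all 3 settings, and those of the other members include 0 in each.

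In order of level, Akt1 led in both groups, and Tsc1 was lowest by mean. In WT the order by mean was Akt1, Kitl, Kit, Foxo3, Tsc2, Mtor, Pdpk1, Rptor and Tsc1. Of these neighbours, Kitl and Kit, Mtor and Pdpk1, and Pdpk1 and Rptor had overlapping ranges. In cKO, Kit stood above Kitl by mean, with overlapping ranges, and each neighbouring pair from Foxo3 down overlapped as well. Kitl and Kit lay at 40.4 FPKM or more in each library, and Mtor, Pdpk1, Rptor and Tsc1 between 7.29 and 17.9 FPKM.

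The log2 fold changes of 8 of the 9 members lay below 0, beside 50% of all genes tested (member median -0.15, median of all genes tested 0). This lean depended largely on a single library. Without cKO replicate 2, 4 of 9 members lay below 0 and the member median was 0. Without WT replicate 2, 7 of 9 lay below 0 (median -0.12). The replicate 2 library of cKO was the lowest of the cKO libraries in 8 of 9 members, beside 49.3% of the 6676 tested genes in the members' range of length. Leaving it out could therefore only raise the values of those members. It was the lowest of all 6 libraries in 7 of 9, beside 35.7% of those genes. Its deviation from a gene's own mean was largest in Tsc2 (-0.57), Pdpk1 (-0.53) and Kit (-0.49), where the median over genes of like length was -0.06. Kitl departed from the shared pattern, with its lowest level in cKO replicate 1 (-0.43) and its highest in WT replicate 3 (0.33). That library was the lowest of the WT libraries in 7 of 9 members, beside 38.5% of the tested genes in the members' range of length. Removing the trend over gene length from each library left 8 of 9 members below 0, with a median of -0.08, and Kitl at -0.43 (95% interval -0.71 to -0.15).

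**Figure D4:**
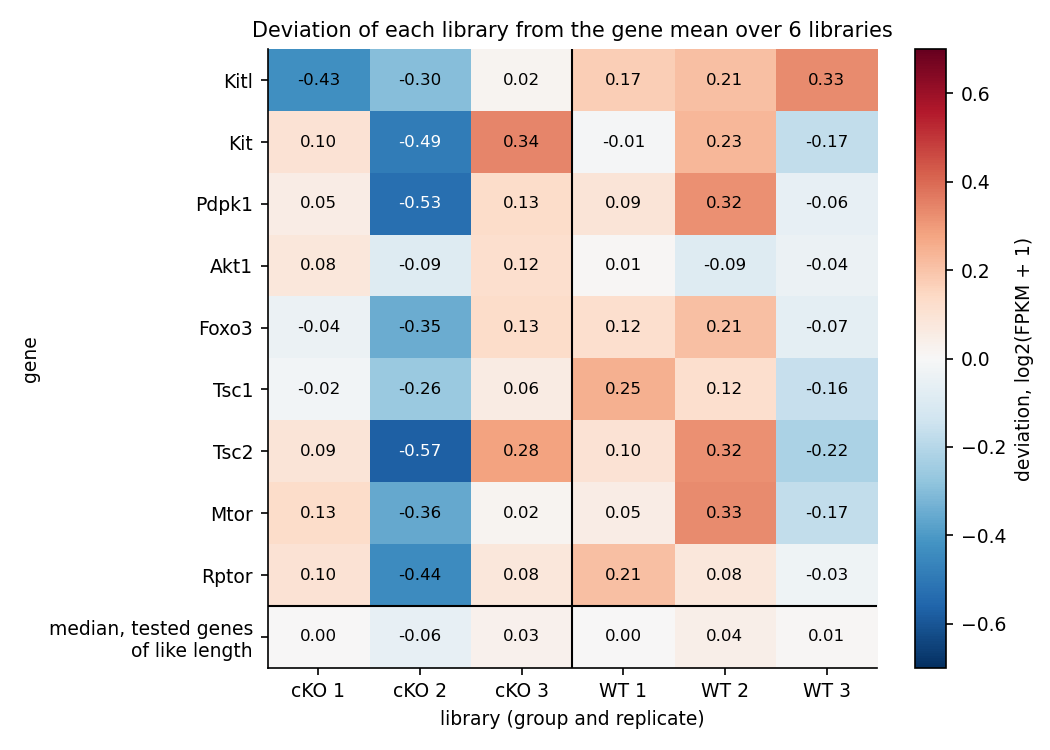
Deviation of each library (columns, cKO left of the line and WT right of it) from the gene's mean over the 6 libraries, on the log2(FPKM + 1) scale, for the 9 members and, in the bottom row, the median over tested genes of 3039 to 8866 bases. The column of cKO replicate 2 is below 0 in all 9 members, from -0.09 in Akt1 to -0.57 in Tsc2, while the Kitl row is at 0.02 or below in cKO and at 0.17 or above in WT.

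Around the members, 95 further genes of the same pathways were listed by function, of which 93 passed the filter on low values. Of these, 0 passed the threshold in either direction by limma or by limma-voom, and at an unadjusted p under 0.05 there were 3 higher, Sgk1, Lamtor5 and Gadd45b, and 1 lower, Foxo1, beside 3.64% higher and 2.7% lower among all genes tested. The 93 were split between 51 with a log2 fold change above 0 and 42 below (median 0.02). In 7 of them all cKO libraries lay above all WT libraries, and in 3 all lay below, beside 6.37% and 5.89% of all genes tested.

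Among AKT paralogues, FOXO factors and related genes, 7 of 9 had a log2 fold change above 0 and 2 below (median 0.07). Foxo1, the family member that is abundant in granulosa cells, stood at 27.4, 23.0 and 35.6 FPKM in cKO, against 36.6, 54.9 and 38.4 FPKM in WT. All cKO libraries lay below all WT libraries, but cKO replicate 3 nearly reached WT replicate 1. The log2 fold change was -0.58 (SE 0.205, 95% interval -1.06 to -0.09, limma adjusted p = 0.768), and it was -0.40 (95% interval -0.85 to 0.06) without WT replicate 2, the library with the highest level. Foxo6 was higher in each cKO library, at 15.4, 15.8 and 16 FPKM, than in WT, at 15.2, 12 and 8.60 FPKM (log2 fold change 0.40, limma adjusted p = 0.773). Foxo4 differed little (6.91 to 8.02 FPKM in cKO, 7.73 to 8.99 FPKM in WT). Sgk1, a kinase related to AKT that also acts on FOXO proteins, ranged from 8.90 to 11.9 FPKM in cKO and from 7.83 to 9.04 FPKM in WT (log2 fold change 0.33, limma adjusted p = 0.771).

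Of 13 tested genes for PI3K subunits and for the phosphatases that oppose the pathway, 9 had a log2 fold change below 0 and 4 above (median -0.13). The median was -0.01 without cKO replicate 2 and -0.05 with the trend over gene length removed. Pik3cd, a catalytic subunit, ranged from 15.6 to 22.5 FPKM in cKO and from 22.1 to 22.7 FPKM in WT, with the lowest level in cKO replicate 2. Phlpp2, a phosphatase that acts on AKT, ranged from 6.55 to 8.26 FPKM in cKO and from 7.87 to 9.75 FPKM in WT. Pik3r2, a regulatory subunit, was nearly level, at 36.1 to 42.2 FPKM in cKO and 35.5 to 38.4 FPKM in WT. Inpp5d, a lipid phosphatase gene best known from blood cells, ranged from 2.5 to 5.52 FPKM in cKO and from 2.87 to 4.01 FPKM in WT.

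Subunits of the mTOR complexes differed in sign, with 6 of 9 below 0 and 3 above (median -0.04). Mlst8, shared by both complexes, stood at 5.80, 3.95 and 5.70 FPKM in cKO, below 6.38, 6.40 and 6.13 FPKM in WT (log2 fold change -0.26, limma adjusted p = 0.801). Prr5, a subunit of complex 2, was above WT in each cKO library, at 5.43, 6.03 and 5.30 FPKM against 4.66, 4.79 and 4.97 FPKM in WT (log2 fold change 0.18, limma adjusted p = 0.798). Telo2, which encodes a chaperone for mTOR and related kinases, ranged from 6.69 to 8.03 FPKM in cKO and from 7.44 to 8.59 FPKM in WT. Prr5l was nearly level, at 2.1 to 2.62 FPKM in cKO and 2.09 to 2.65 FPKM in WT (log2 fold change 0.05).

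Upstream of complex 1, in the genes of RHEB, the RAG GTPases and the amino acid sensors, 13 of 23 had a log2 fold change above 0 and 10 below (median 0.04). Lamtor5, part of the anchor of the RAG proteins on lysosomes, ranged from 38.3 to 47.1 FPKM in cKO and from 31.4 to 37.7 FPKM in WT (log2 fold change 0.28, limma adjusted p = 0.773). It is a short gene of 884 bases, and its highest level was in cKO replicate 2. Rragd, a RAG GTPase gene, ranged from 5.07 to 8.46 FPKM in cKO and from 4.20 to 5.41 FPKM in WT. Prkaa2, a catalytic subunit of AMPK, ranged from 2.02 to 2.79 FPKM in cKO and from 2.68 to 3.02 FPKM in WT, and Rraga from 46.5 to 53.3 FPKM in cKO and from 50.3 to 56.7 FPKM in WT.

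Among genes of the complex 1 outputs, 6 of 10 were above 0 and 4 below (median 0.04). Eef2k, which encodes the kinase that slows translation elongation, stood at 9.41, 8 and 8.71 FPKM in cKO, all below 10.7, 10.6 and 9.53 FPKM in WT (log2 fold change -0.22, limma adjusted p = 0.773). Ulk1, an autophagy kinase gene, ranged from 24.1 to 26.3 FPKM in cKO and from 26.2 to 31.9 FPKM in WT, so that the groups just touched. Eif4ebp1, a translation repressor gene, ranged from 39.7 to 47.3 FPKM in cKO and from 33.0 to 42.5 FPKM in WT, and the ribosomal S6 kinase gene Rps6kb2 from 7.86 to 11.3 FPKM in cKO and from 7.36 to 8.19 FPKM in WT.

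Of 16 genes for KIT adaptors and parallel receptor inputs, 7 were above 0 and 9 below (median -0.03). The largest log2 fold change was that of Ptpn6, a phosphatase gene of blood cells that damps KIT signalling, at 7.4, 2.14 and 3.09 FPKM in cKO and 1.27, 1.31 and 2.43 FPKM in WT (0.86, SE 0.368, limma adjusted p = 0.773). The SRC family kinase gene Lyn ranged from 3.10 to 5.14 FPKM in cKO and from 2.68 to 3.21 FPKM in WT. Leukocyte markers also had higher means in cKO. All 10 had a log2 fold change above 0, and 8 had all cKO libraries above all WT libraries, beside 6.37% of genes tested. Adgre1, however, was lowest in cKO replicate 2 (1.03 FPKM). The summed level of the markers was 72.7 to 182 FPKM in cKO and 33.5 to 50.6 FPKM in WT, and cKO replicate 1 was highest for the markers, Ptpn6 and Lyn. The part of leukocytes in the Ptpn6 and Lyn values was not tested. The adaptor gene Gab2 ranged from 17.9 to 29.5 FPKM in cKO and from 24.3 to 30.2 FPKM in WT, and the phospholipase gene Plcg1 from 27.9 to 35.5 FPKM in cKO and from 31.7 to 40.7 FPKM in WT.

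Of 13 genes known as FOXO targets, 11 were above 0 and 2 below (median 0.15, beside 0 over all genes tested). The median was 0.08 with quantile normalization and also without WT replicate 2, and 0.23 without WT replicate 1. With the trend over gene length removed it was 0.10. Gadd45b, a stress response gene, stood at 8.65, 10.6 and 9.21 FPKM in cKO, above 7.16, 5.39 and 6.93 FPKM in WT (log2 fold change 0.49, SE 0.131, limma adjusted p = 0.74). Cdkn1a, an inhibitor of cyclin-dependent kinases that p53 also induces, stood at 9.66, 4.96 and 7.31 FPKM in cKO, against 6.30, 4.03 and 3.19 FPKM in WT (log2 fold change 0.59, limma adjusted p = 0.773), with overlapping groups. Txnip, an inhibitor of thioredoxin, and Bcl2l11, a cell death gene, overlapped widely, at 180 to 267 and 3.42 to 4.01 FPKM in cKO against 205 to 280 and 3.66 to 4.01 FPKM in WT.

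**Figure D5:**
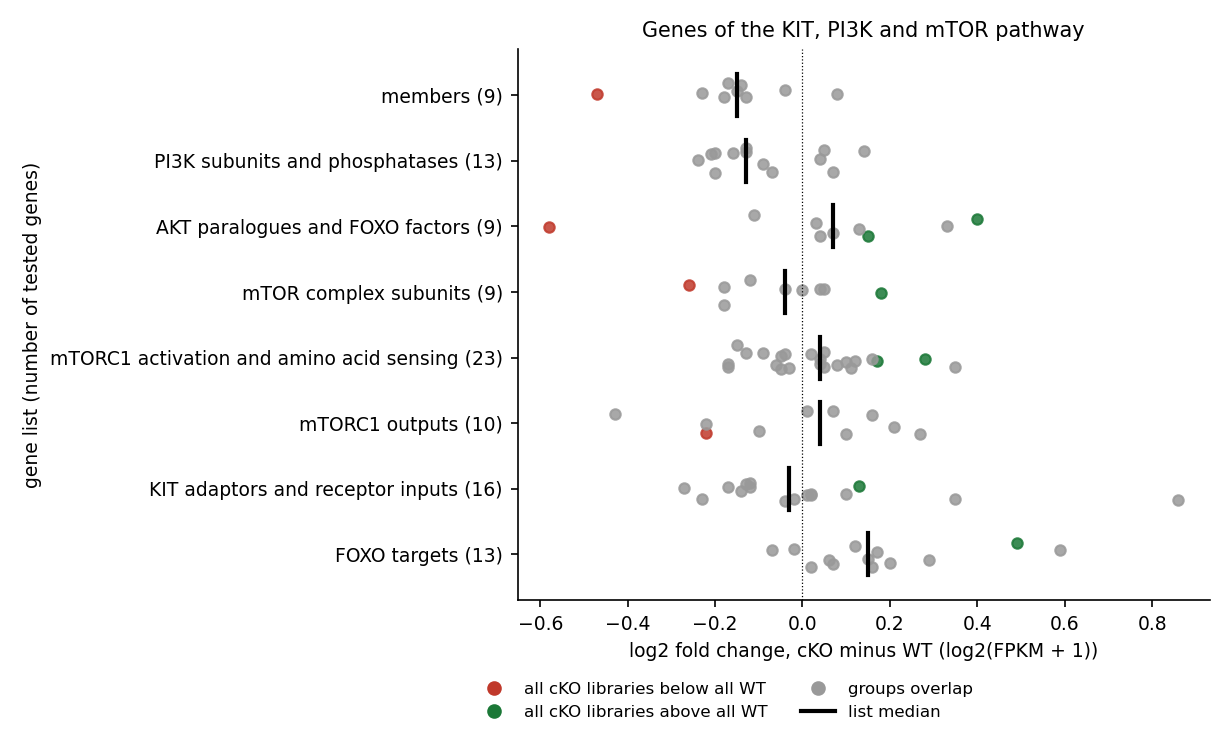
Log2 fold change, cKO minus WT (horizontal axis), of each tested gene in the member list and the 7 pathway lists (rows, with the number of genes), with the list median as a black bar; vertical scatter within a row has no meaning. Foxo1 (-0.58) and Kitl (-0.47) lie farthest to the left among genes whose groups do not overlap, and Gadd45b (0.49) and Foxo6 (0.40) farthest to the right.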

How the data were processed

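The values are FPKM per gene in a single table of 6 libraries, as deposited by the authors. The submitters' processing notes name HISAT2 2.0.5 and, per the same notes, mm10 and GRCm39 without a role; the chromosome accessions of the table are those of GRCm39. The sources used here do not give the read counter, annotation release or strandedness. FPKM times gene length gave whole reads within 0.01 in each library for 100% of values to 3 digits; 1 read in 1 kb equals 0.052 to 0.0581 FPKM.

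The 14714 genes averaging 1 FPKM or more were tested on log2(FPKM + 1), which understates changes of low genes, with limma 3.58.1 in R 4.3.3 (trended prior, two-sided, Benjamini-Hochberg adjustment over all genes tested, threshold 0.05). The fit was run on simulated data with independent noise drawn from its own variance prior. Those data lack the deviations of libraries with gene length, so the run does not show how the fit handles them. Named pathway genes are those past the threshold or else the 2 with the smallest p in each direction per list; marker genes given by name were picked with their values known. The members and lists were chosen with earlier results of these data known. Alternatives were other pseudocounts (0.1, 0.5), filters (none, 5 FPKM), scalings, priors, library weights, a replicate block and leaving out each library. Removal of the length trend (lowess, span 0.3) and limma-voom with median-of-ratios scaling, in place of the planned TMM, were added after seeing the data. The exon sequence is from GENCODE M21 (GRCm38).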

Additional observations from a re-analysis of the deposited data

How the results depend on the processing

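Of the 9 members, Kitl, Pdpk1, Akt1, Foxo3 and Tsc1 kept the direction of their log2 fold change, or reached 0, in all 17 alternatives. Kitl lay between -0.60 and -0.38, and with its groups separate, leaving out a library could not turn it. Rptor kept its direction except without cKO replicate 2, where it rounded to 0 and did not lie below it. No member passed the adjusted threshold in any alternative. Kit turned to 0.06 with library weights, the cause not tested. With 1 library left out Kit ranged from -0.21 to 0.20, Tsc2 from -0.31 to 0.12, Mtor from -0.25 to 0.01, and Kit relative to oocyte markers from -0.20 to 0.16; the reversals came without cKO replicate 2 and, for Kit, also without WT replicate 2. Over all genes tested, 1 was higher and 2 were lower. The count higher was 0 with quantile normalization, the length trend removed, limma-voom, a pseudocount of 0.1 or 0.5, a filter at 5 FPKM or none, and 3 with library weights. The count lower was 0 with no filter and limma-voom and 1 with the length trend removed. Leaving out a library gave 0 to 1 higher and 0 to 1 lower. With the replicate number as a block, 0 were higher and 0 lower. Deviations from group means correlated by 0.18, -0.08 and -0.06 between libraries of the same number, so the numbers were not taken to pair the libraries. Rescaling to a common total moved the median of all genes tested to -0.06. The members had 1172 to 7967 reads per library, so that the spread between libraries, not counting, limits their precision.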
